A study of Mus musculus with 36 samples.

Results

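The 8 genes described here are Setdb1, Trim28, Atf7ip, Mphosph8, Morc2a, Morc3, Ehmt1 and Ehmt2, which encode proteins that silence retroelements through H3K9 methylation or act beside it. They were taken by symbol, with no threshold on their values, from 22979 genes listed in any of 6 tables, and all 8 were listed in all 6. The 8 had 478 or more reads in each library and passed the filters of every test.

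Retroelements are mobile sequences related to retroviruses, and embryonic stem cells keep them silent largely by methylating lysine residues of histone H3 at the position called H3K9. TRIM28 (also called KAP1) is brought to them by zinc finger proteins and recruits the methyltransferase SETDB1, which ATF7IP binds and stabilises. MPHOSPH8 is the subunit of the HUSH complex that reads the methylated histone, MORC2A is an ATPase linked to HUSH, MORC3 is a related ATPase that also silences retroelements, and EHMT1 (GLP) and EHMT2 (G9a) form a separate H3K9 methyltransferase. N6-methyladenosine (m6A), a methyl mark on RNA, is also known to act on nuclear RNA of retroelements, which links this machinery to the factors depleted here. The tables hold genes, so RNA of the retroelements themselves and the proteins were not analysed here.

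The libraries came from mouse embryonic stem cells (mES cells) with a Cast x 129S background, in which the promoter of Xist on the 129S allele was replaced by a TetOn promoter and Xist carries a Bgl array. In each of 3 lines 1 protein was fused to the FKBP12 F36V tag, which leads to its degradation when dTAG-13 is added: METTL3, the enzyme that writes m6A (clone 12D), YTHDC1, a nuclear reader of m6A (clone Y12H), and ZCCHC8, a subunit of the nuclear exosome targeting (NEXT) complex that delivers RNA in the nucleus for decay (clone Z12H). Each line is 1 clone, so line and clone cannot be told apart. Xist was switched on in both arms with 1 µg/ml doxycycline, given 20 h ahead of a 4 h pulse with 500 µM 4-thiouridine (4sU) and kept on throughout it. The dTAG arm also received dTAG-13 from 2 h before doxycycline, which the Ctrl arm did not. Cells were grown on mouse fibroblast feeders, which were removed by preplating before the treatments. The pulse was followed by a chase in 50 mM uridine for 0, 90 or 180 min, with 2 replicates per combination, 36 libraries in all. In SLAM-seq, 4sU in RNA made during the pulse is chemically modified and read as C, so that T-to-C mismatches mark new RNA, and the new-to-total ratio of a gene is the share of its reads that came from RNA made in the pulse.

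The m6A writer prefers a short consensus, of which GGACT is a common form, and this motif was counted in the transcript with the longest coding region of each gene, on the transcript strand only, in reference sequence (mm10, GENCODE M21). m6A itself was not measured in these libraries. Morc2a had 10 copies, a density of 1.77 per kb of transcript, more than 82.3% of 14436 genes. Setdb1 had 8 copies (1.72 per kb, more than 80.9% of genes), Ehmt1 had 9 (1.51 per kb, 73.9%) and Ehmt2 had 6 (1.49 per kb, 73.0%). The others lay below the median of 1.05 per kb, with 3 copies in Mphosph8 (1.02 per kb), 8 in Atf7ip (0.993 per kb), 2 in Trim28 (0.616 per kb, more than 24.3% of genes) and 1 in Morc3 (0.239 per kb, more than 9.56%). Of all transcripts 91.2% held the motif at least once, and among transcripts within 10% of the length of each of the 8 genes the share was 95.5% to 100%. The windows below are those of the 4 genes with the largest differences between arms in read counts, each around the copy nearest to the stop codon, 5′ to 3′ on the transcript strand, with the motif in capitals.
Setdb1: ctcacttgGGACTacaactac
Trim28: tcaggctgGGACTgtgccacc
Morc2a: accaaaggGGACTgaggagcc
Ehmt2: acacctgaGGACTcttaaaat
The Setdb1 window (chr3:95324148-95324168, minus strand) lies in coding sequence of exon 22 of 22, with its A at −83 from the first base of the stop codon. In Trim28 (chr7:13029529-13029549, plus strand) the nearest copy is in coding sequence of exon 12 of 17, at −897. The Morc2a copy (chr11:3689089-3689109, plus strand, exon 26 of 26) runs into the stop codon itself, at −2, and that of Ehmt2 (chr17:34913813-34913833, plus strand, exon 27 of 27) starts the 3′ UTR, at 5. A match is a description of the letters and not a mapped m6A site.

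Depth was 5274684 to 18652000 reads per library and lowest in the ZCCHC8 line (5274684 to 10257631). Since dTAG-13 degrades protein, mRNA of the tagged genes does not measure depletion, and none of the 3 was called lower in the dTAG arm. Mettl3 was at 58.4 ± 4.18 CPM in Ctrl and 58.1 ± 3.22 in dTAG libraries of its line (SD, n = 6), Zcchc8 at 34.5 ± 5.10 and 35.4 ± 3.62, and Ythdc1 rose from 251 ± 59.6 to 370 ± 38.1 (edgeR adjusted p 0.00488), where CPM is the read count scaled to a common library size. All 5 pluripotency markers were detected in every library, with a summed level of 1411 to 2233 CPM, and 5 markers of fibroblast feeders summed to 7.77 to 30.0 CPM, with Col3a1 at 0 to 0.927 CPM. The 5 differentiation markers summed to 6.24 to 10.99 CPM in the METTL3 line without dTAG-13 and to 13.9 to 17.6 CPM with it. These sums did not overlap, which held upward for 4.61% of single genes. Called higher were 2 of the 5, Fgf5 and Gata6 (log2 difference 1.09 for each), beside 11.2% of all genes. Their levels were low, at 0.114 to 9.92 CPM (Fgf5) and 0.102 to 2.03 CPM (Gata6) over all libraries. T, Gata4 and Sox17 were not called. The part of the shift in these markers in the METTL3 results below was not tested.

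**Figure D1:**
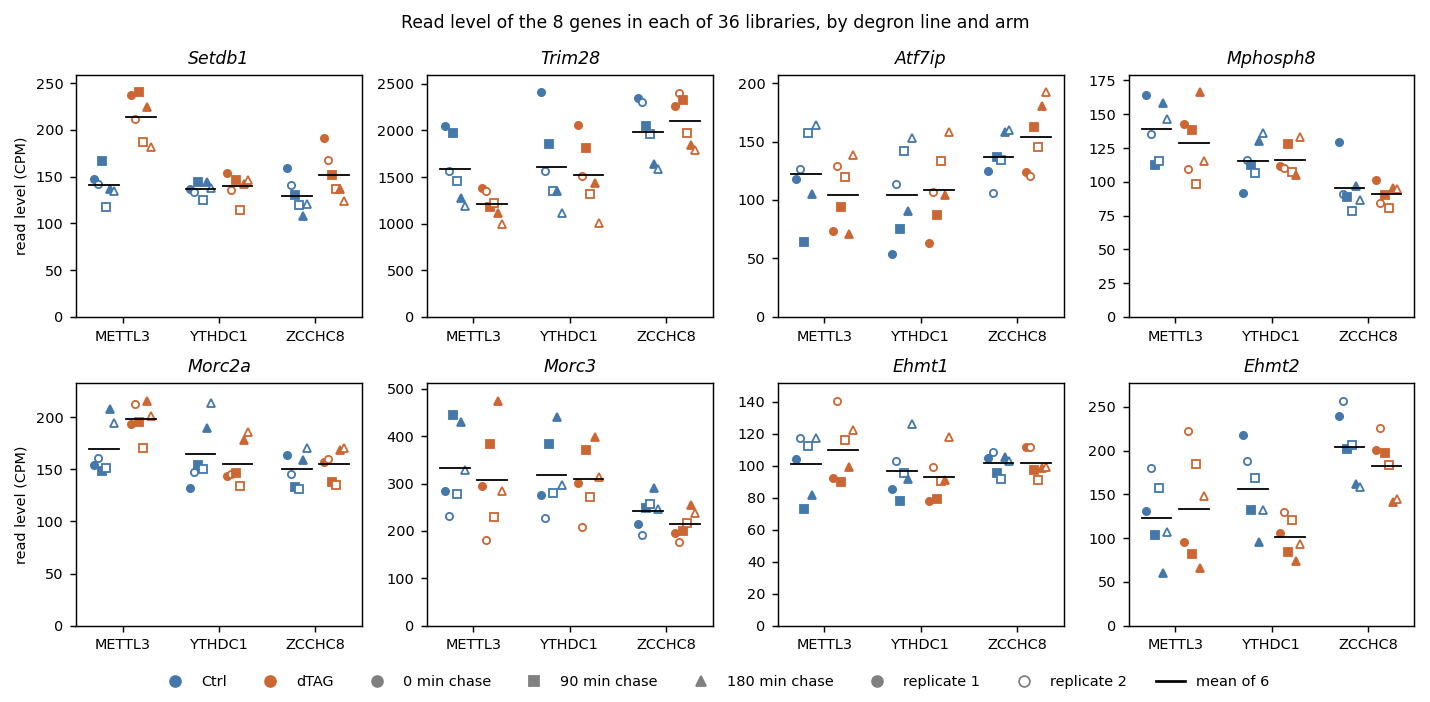
Read level in CPM (linear axes from 0) of each of the 8 genes in all 36 libraries, by line and arm, with symbols for chase time and replicate and a bar for the mean of 6. Setdb1 of the METTL3 line is the gene in which all 6 dTAG libraries (182 to 240 CPM) stand above all 6 Ctrl libraries (117 to 166 CPM).

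Levels can be compared between genes only per length, here as CPM per kb of the length given in the tables. Trim28 had the highest level in all lines, at 488 ± 110, 495 ± 143 and 611 ± 99.2 CPM per kb in Ctrl libraries of the METTL3, YTHDC1 and ZCCHC8 lines (SD, n = 6). Its lowest Ctrl library, at 343 CPM per kb, was above the highest Ctrl library of any other of the 8 genes. Morc3 came next, at 79.6 ± 20.8, 76.0 ± 18.8 and 57.7 ± 8.29 CPM per kb. Its Ctrl range overlapped that of Mphosph8 in the METTL3 line and that of Ehmt2 in the ZCCHC8 line. Mphosph8, Ehmt2 and Morc2a followed at 29.6 to 50.7 CPM per kb, with ranges over libraries that overlapped one another except that Ehmt2 lay above Morc2a in the ZCCHC8 line. Setdb1 had 24.9 ± 2.87, 24.2 ± 1.28 and 23.0 ± 3.20 CPM per kb, and its libraries lay above those of Ehmt1 and Atf7ip in the METTL3 and YTHDC1 lines and overlapped those of Atf7ip in the ZCCHC8 line. Ehmt1 (16.2 to 17.0) and Atf7ip (13.0 to 16.9) were lowest and did not differ beyond their spread.

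Setdb1 (ENSMUSG00000015697, chr3:95323525-95357202, minus strand), the methyltransferase, rose on METTL3 depletion. In bulk RNA, a change in the number of cells that hold a transcript and a change in RNA per cell cannot be told apart. The Setdb1 level in Ctrl libraries of the METTL3 line was 117 CPM at the lowest, 139 at the median and 166 at the highest. In dTAG libraries it was 182, 218 and 240 CPM. All 6 dTAG libraries were thus above all 6 Ctrl libraries, which held in this direction for 4.61% of 14658 genes. Setdb1 was higher in 6 of 6 pairs of one chase time and replicate, by 0.43 to 0.72 on the log2 scale. The share of all genes with 6 of 6 pairs in 1 direction was not computed, here or for the pairs below. Such pairs are 3 chase times of 2 replicates, and the chase libraries of a replicate share a batch of cells. The log2 difference was 0.62 (SE 0.11, edgeR adjusted p 0.00313, corrected over all genes), and Setdb1 was the 1 of 8 genes past the threshold of 0.05. That threshold was passed by 19.9% of genes (11.2% higher and 8.73% lower). With the 3 chase libraries of each replicate and arm summed, 2 against 2 and unpaired, the difference was 0.61 (edgeR adjusted p 0.559). In that fit 0 of 15895 genes were called by edgeR, with 1433 at an unadjusted p under 0.05.

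Setdb1 was not called in the YTHDC1 line. It was 125 to 145 CPM with a median of 137 in Ctrl and 114 to 153 CPM with a median of 144 in dTAG libraries, and the ranges overlapped. The log2 difference was 0.04 (SE 0.07, edgeR adjusted p 0.857). On ZCCHC8 depletion Setdb1 rose, from 108, 126 and 159 CPM (lowest, median and highest) to 124, 144 and 191 CPM. The groups overlapped, yet the dTAG library was higher in 6 of 6 pairs, and the difference of 0.25 (SE 0.05, edgeR adjusted p 0.000397) held under all 7 alternatives. It was 1 of 5 of the 8 genes called in this line, in which 39.6% of 14227 genes were called (20.1% higher and 19.5% lower). Over the alternatives the share of all genes called was 24.2% to 45.7%.

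The Setdb1 response of the METTL3 line differed from that of each other line. It exceeded that of the YTHDC1 line by 0.56 (SE 0.12, edgeR interaction, adjusted p 0.00089), in a comparison in which 20.2% of 15354 genes (10.1% in each direction) and 2 of the 8 were called. The response of the ZCCHC8 line was lower than that of the METTL3 line, at −0.40 (adjusted p 0.0116), in a comparison with 23.4% called (10.9% higher and 12.6% lower) and 2 of the 8 among them. Without a filter on low counts this second difference was −0.38 with an adjusted p of 0.0654. The responses of the ZCCHC8 and YTHDC1 lines were not shown to differ, at 0.15 for ZCCHC8 minus YTHDC1 (SE 0.12, edgeR adjusted p 0.457). This difference was called in none of the 5 alternatives. In this comparison, here and below, the median of all genes was −0.0553 (−0.00704 with other size factors). All lines were fitted together in it, so its values need not equal the difference between the separate line fits. Exons of Setdb1 overlap Cers2, which lies on the opposite strand, and counting by strand was not stated, so reads in the shared stretch cannot be told apart. On METTL3 depletion Cers2 rose too, from 45.7 to 63.0 CPM (0.48, SE 0.10, edgeR adjusted p 0.00689).

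Trim28 (ENSMUSG00000005566, chr7:12999114-13031035, plus strand), the corepressor, was lower on METTL3 depletion in 6 of 6 pairs, by 0.18 to 0.74, without passing the threshold. Its Ctrl libraries lay at 1193, 1511 and 2046 CPM (lowest, median and highest) and its dTAG libraries at 1000.4, 1198 and 1382 CPM. The ranges overlapped, since both 180 min Ctrl libraries, at 1270 and 1193 CPM, lay within the dTAG range. This gave a log2 difference of −0.36 (SE 0.12, edgeR adjusted p 0.0509). With the replicate number as a block it was −0.35 with an adjusted p of 0.00145, in a fit that called 48.2% of genes. It was called in 5 of 7 alternatives, at −0.21 without replicate 1 (adjusted p 0.000327) and −0.46 without replicate 2 (adjusted p 0.00214). It was not called without a filter on low counts (adjusted p 0.0827) or with summed libraries (0.752). Leaving out a replicate leaves the chase libraries of 1 batch of cells. Such fits called 52.9% (without replicate 1) and 40.5% (without replicate 2) of genes in this line. In the YTHDC1 line the difference was −0.05 (SE 0.15, adjusted p 0.925), with libraries at 1112 to 2407 CPM in Ctrl and 1011 to 2056 CPM in dTAG.

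In the ZCCHC8 line Trim28 rose slightly, from 1583, 2002 and 2347 CPM to 1792, 2119 and 2406 CPM. The log2 difference was 0.13 (SE 0.05, edgeR adjusted p 0.0351) with 5 of 6 pairs higher, and it was called in 3 of 7 alternatives, not without replicate 2 (0.15, adjusted p 0.199). The Trim28 response in the ZCCHC8 line exceeded that in the METTL3 line by 0.45 (edgeR interaction, adjusted p 0.0466, and 0.0583 without a filter on low counts). The METTL3 response minus the YTHDC1 response was −0.33 (adjusted p 0.169), and −0.32 with an adjusted p of 0.00233 under the replicate block, in which 42.1% of genes were called.

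Atf7ip (ENSMUSG00000030213, chr6:136506167-136610862, plus strand), the partner of SETDB1, was called in the ZCCHC8 line, where it rose. Its libraries there lay at 106, 135 and 160 CPM in Ctrl and 120, 154 and 192 CPM in dTAG (lowest, median and highest). The log2 difference was 0.20 (SE 0.05, edgeR adjusted p 0.00184), with 5 of 6 pairs higher and an adjusted p of 0.0603 without replicate 2. In the METTL3 and YTHDC1 lines its libraries spread widely within each arm, from 63.8 to 165 CPM and from 53.5 to 158 CPM over both arms, and within each of these lines every replicate 1 library lay below every replicate 2 library. The differences there were −0.21 (SE 0.25) and 0.06 (SE 0.25), with adjusted p 0.621 and 0.952. Without replicate 1 the METTL3 difference was −0.18 with an adjusted p of 0.0216, in a fit that called 52.9% of genes. The ZCCHC8 response minus the METTL3 response was 0.36 (adjusted p 0.449), and 0.37 with an adjusted p of 0.0327 under the replicate block, which called 43.1% of genes.

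Of the HUSH genes, Morc2a (ENSMUSG00000034543, chr11:3649191-3690477, plus strand) was higher after METTL3 depletion in 6 of 6 pairs. Its Ctrl libraries lay at 149, 158 and 208 CPM and its dTAG libraries at 170, 198 and 215 CPM. The groups overlapped through the 180 min Ctrl libraries. This gave a log2 difference of 0.25 (SE 0.09, edgeR adjusted p 0.0575, and 0.00788 under the replicate block). It was called in 4 of 7 alternatives, at 0.24 without replicate 1 (adjusted p 0.00123) and 0.30 without replicate 2 (adjusted p 0.0488). Those 2 fits called 52.9% and 40.5% of genes. In the other lines Morc2a differed by −0.06 (YTHDC1, adjusted p 0.718) and 0.08 (ZCCHC8, adjusted p 0.172). Without replicate 1 the YTHDC1 difference was −0.13 (adjusted p 0.0402), in a fit that called 25.7% of genes. The METTL3 response exceeded the YTHDC1 response by 0.30 (edgeR interaction, adjusted p 0.011), which was not called without a filter on low counts (adjusted p 0.122) or without replicate 2 (0.118). The ZCCHC8 response minus the METTL3 response was −0.22 (adjusted p 0.0598), and 0.0197 under the replicate block.

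Mphosph8 (ENSMUSG00000079184, chr14:56668248-56697430, plus strand), the chromodomain subunit of HUSH, was not called in any line over both replicates. Its log2 differences were −0.09 (METTL3, SE 0.13), 0.02 (YTHDC1, SE 0.09) and −0.02 (ZCCHC8, SE 0.08), with edgeR adjusted p of 0.707 to 0.952. Without replicate 1 the METTL3 difference was −0.27 (adjusted p 0.000582) and without replicate 2 it was 0.10 (adjusted p 0.577). These fits called 52.9% and 40.5% of genes. Over both arms its libraries ranged from 98.2 to 166 CPM, from 91.4 to 136 CPM and from 78.6 to 130 CPM in the METTL3, YTHDC1 and ZCCHC8 lines, and no arm stood apart. Exons of Morc2a overlap Tug1 on the opposite strand and those of Mphosph8 overlap Gm16973, so shared reads cannot be told apart there either. The same holds for Atf7ip with Gm44140 and for Setdb1 with Gm37500, both on the opposite strand. Gm16973 had a mean of 9.95 CPM without and 7.17 CPM with dTAG-13 in the METTL3 line, below the level of Mphosph8.

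Morc3 (ENSMUSG00000039456, chr16:93832121-93876073, plus strand) fell slightly on ZCCHC8 depletion, in 6 of 6 pairs. Its libraries in that line lay at 192, 247 and 291 CPM in Ctrl and 177, 208 and 256 CPM in dTAG. The ranges overlapped, and the log2 difference was −0.14 (SE 0.05, edgeR adjusted p 0.0356, and 0.0935 without replicate 2). In the METTL3 and YTHDC1 lines the difference was −0.10 (SE 0.20) and −0.01 (SE 0.14), with adjusted p 0.77 and 0.983. Without replicate 1 the METTL3 difference was −0.25 with an adjusted p of 0.000275, in a fit that called 52.9% of genes.

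Ehmt2 (ENSMUSG00000013787, chr17:34898469-34914052, plus strand), which encodes G9a, fell on YTHDC1 depletion and was the 1 of 8 genes called in that line, in which 5.1% of 14443 genes were called (2.41% higher and 2.69% lower). Its Ctrl libraries lay at 95.7, 151 and 217 CPM and its dTAG libraries at 73.8, 99.9 and 130 CPM (lowest, median and highest). The ranges overlapped because the level fell over the chase in both arms, and within a chase time and replicate dTAG was lower in 6 of 6 pairs, by 0.38 to 1.03 on the log2 scale. The log2 difference was −0.58 (SE 0.13, edgeR adjusted p 0.0281). It was called in 6 of 7 alternatives, the exception being the summed libraries, where the difference was −0.59 and 0 of 15513 genes were called by edgeR (696 at an unadjusted p under 0.05).

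In the ZCCHC8 line Ehmt2 fell by 0.13 (SE 0.05, edgeR adjusted p 0.0285), in 6 of 6 pairs, from 158, 204 and 256 CPM to 141, 191 and 226 CPM, and was not called without replicate 2 (−0.12, adjusted p 0.239). In the METTL3 line the replicates disagreed. In replicate 1 Ehmt2 was at 59.8 to 131 CPM without and 66.0 to 95.3 CPM with dTAG-13, and in replicate 2 at 107 to 180 CPM and 148 to 222 CPM. The difference was 0.16 (SE 0.30, edgeR adjusted p 0.759) over both, 0.36 without replicate 1 (adjusted p 1.5e-06, where 52.9% of all genes were called) and −0.19 without replicate 2 (adjusted p 0.253). The METTL3 response minus the YTHDC1 response was 0.73 (adjusted p 0.0748) and 0.65 with an adjusted p of 0.000408 under the replicate block. The ZCCHC8 response minus the YTHDC1 response was 0.40 (adjusted p 0.427), and 0.0246 under the block, in a comparison in which 14.3% of genes and 0 of the 8 were called, and 32% under the block.

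Ehmt1 (ENSMUSG00000036893, chr2:24789928-24919614, minus strand), which encodes the partner GLP, was not called in any line. Its differences were 0.15 (METTL3, SE 0.16), −0.05 (YTHDC1, SE 0.11) and 0.03 (ZCCHC8, SE 0.04), with edgeR adjusted p of 0.569 to 0.906. Its libraries ranged from 72.8 to 140 CPM over all lines and arms. Exons of Ehmt1 overlap Gm37139 on the same strand, so even counting by strand could not tell shared reads apart.

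**Figure D2:**
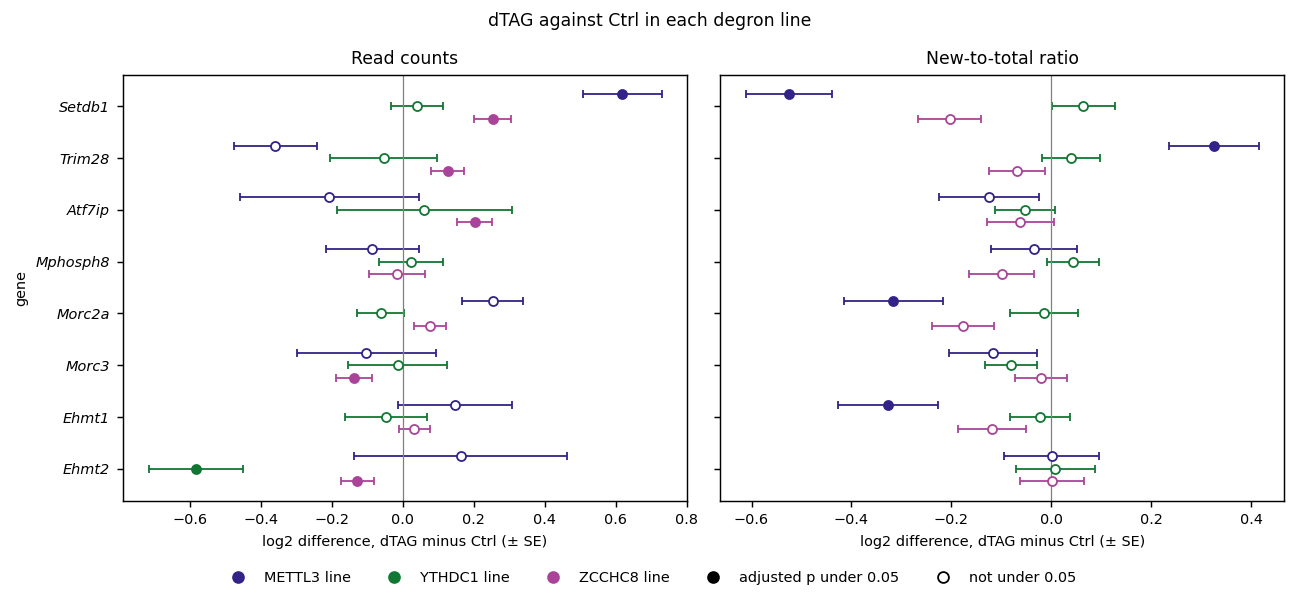
Log2 difference of dTAG minus Ctrl (point) with its SE (bar) for the 8 genes in the 3 lines, for read counts on the left and the new-to-total ratio on the right, with filled points where the adjusted p was under 0.05. Setdb1 of the METTL3 line lies at 0.62 for reads and −0.53 for the ratio, and Trim28 at −0.36 and 0.33.

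The new-to-total ratio of the authors' GRAND-SLAM run is its most probable value (MAP) and was compared on the log2 scale. In the METTL3 line 27.1% of 8289 genes differed between arms, 2.96% higher and 24.1% lower, and 4 of the 8 were among them. The median difference of all genes was −0.15, so the ratio of most genes was lower in dTAG libraries. With each library centred on its own median, 1904 genes were higher and 810 lower.

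Setdb1 had a lower share of new RNA after METTL3 depletion. At 0 min its ratio was 0.488 and 0.478 in the 2 Ctrl libraries and 0.387 and 0.349 in the dTAG libraries, and the posterior intervals deposited with these estimates reached down to 0.456 in Ctrl and up to 0.403 in dTAG libraries. At 180 min it was 0.482 and 0.474 in Ctrl and 0.302 and 0.369 in dTAG. The ratio was lower in 6 of 6 pairs, with pair differences of −0.69 to −0.33, and the mean log2 difference was −0.53 (SE 0.09, limma adjusted p 9.29e-05), lower than that of all but 5.16% of genes. It was −0.31 with libraries centred (adjusted p 0.00148) and held under all 7 alternatives.

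Trim28 differed in the opposite direction. Its ratio at 0 min was 0.246 and 0.258 in Ctrl and 0.325 and 0.323 in dTAG libraries, and at 180 min 0.378 and 0.430 in Ctrl and 0.416 and 0.542 in dTAG. It was higher in 6 of 6 pairs, by 0.33 on average (SE 0.09, limma adjusted p 0.0093), above 98.4% of genes. With libraries centred the difference was 0.54. It was not called from the T-to-C rate (0.35, adjusted p 0.076) or without replicate 2 (0.30, adjusted p 0.0934).

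Morc2a and Ehmt1 had lower ratios, by −0.32 (limma adjusted p 0.0214) and −0.33 (adjusted p 0.0174). Both differences shrank to −0.10 and −0.11 with libraries centred and were then not called (adjusted p 0.17 and 0.166). Neither was called from the T-to-C rate or in either replicate alone. Atf7ip (−0.13), Morc3 (−0.12) and Mphosph8 (−0.03) did not pass. With libraries centred these changed sign, to 0.09, 0.10 and 0.18, beside a median of 0.0685 for all genes. Mphosph8 then had a limma adjusted p of 0.00705, where 32.7% of genes were called. Ehmt2 differed by 0.00056 (adjusted p 0.997), and by 0.22 with libraries centred (adjusted p 0.0543).

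In the YTHDC1 line 0.306% of 8820 genes and 0 of the 8 were called for the ratio by limma, and the 8 differed by −0.08 to 0.06. Under each of the 7 alternatives 0 of the 8 were called too, beside 0% to 1.9% of all genes. In the ZCCHC8 line 1.14% of 7251 genes and 0 of the 8 were called. Setdb1 was again lowest among the 8, at −0.20 (adjusted p 0.103) with lower ratios in 6 of 6 pairs. Its T-to-C rate fell by 0.29 (adjusted p 0.0387, with 4.25% of genes called for that rate). The median difference of all genes was −0.12 for that rate and −0.045 for the ratio. With libraries centred the Setdb1 ratio differed by −0.14 and was not called. Morc2a followed at −0.18 (adjusted p 0.147), and at −0.30 by T-to-C rate, which was not called.

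**Figure D3:**
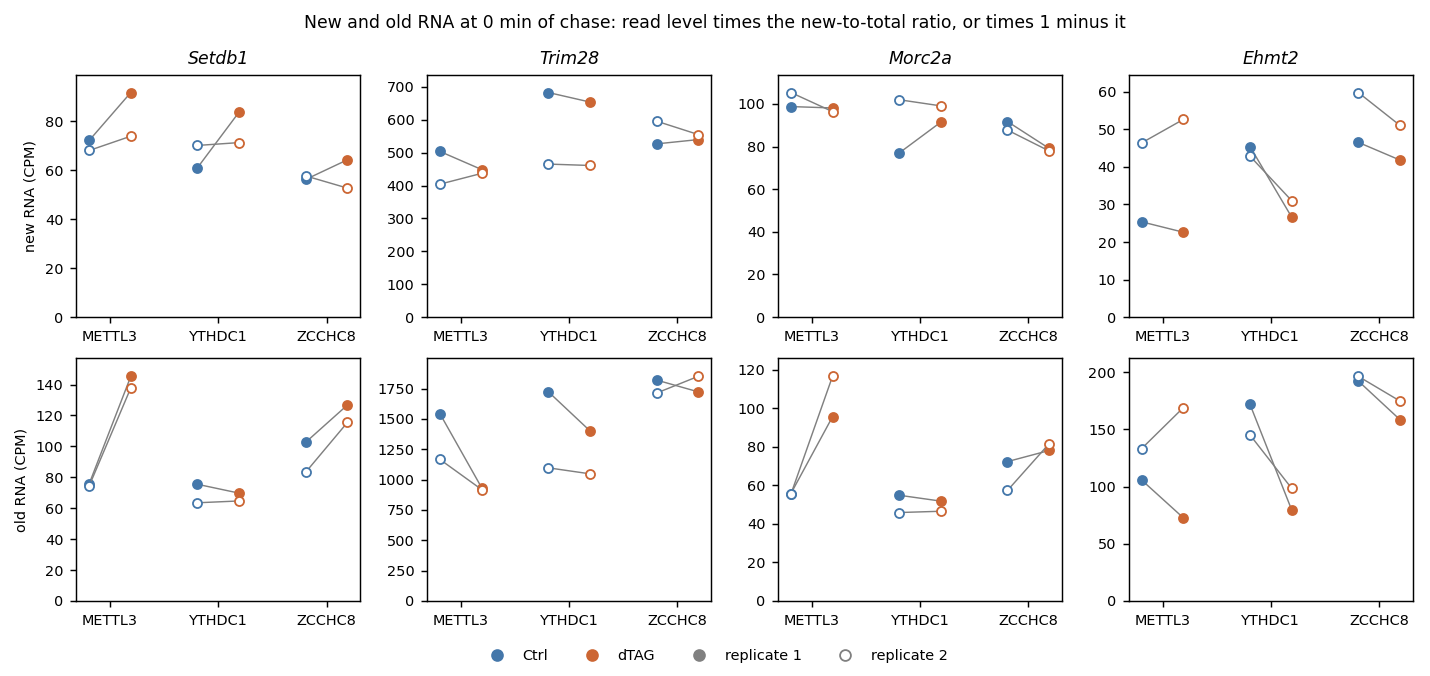
New RNA (top row, read level times the new-to-total ratio) and old RNA (bottom row, read level times the rest), in CPM on linear axes from 0, at 0 min of chase for 4 genes, with a line joining Ctrl and dTAG of 1 replicate. Old Setdb1 RNA of the METTL3 line goes from 75.7 and 74.4 CPM to 145 and 138 CPM, while new RNA goes from 72.1 and 68.0 to 91.7 and 73.9 CPM.

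Read level and ratio together divide each gene into RNA made in the pulse and older RNA. These values are descriptions over 2 replicates with no test. Old Setdb1 RNA at 0 min went from 75.7 and 74.4 CPM to 145 and 138 CPM on METTL3 depletion, higher by 0.94 and 0.89 on the log2 scale in the 2 replicates. New Setdb1 RNA went from 72.1 and 68.0 CPM to 91.7 and 73.9 CPM, higher by 0.35 and 0.12. The difference between arms was thus larger in old than in new RNA in both replicates.

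For Trim28 the older RNA was the fraction that fell between arms in both replicates of the METTL3 line. On METTL3 depletion it went from 1542 and 1166 CPM to 933 and 918 CPM (−0.72 and −0.34), while new RNA was at 504 and 404 CPM against 449 and 437 CPM (−0.17 and 0.11). Old Morc2a RNA went from 55.8 and 55.4 CPM to 95.6 and 117 CPM (0.78 and 1.07), with new RNA nearly level (−0.01 and −0.13). The ratio used in this split was not centred. In the METTL3 line its median over all genes at 0 min was 0.5958 and 0.6027 in Ctrl and 0.5232 and 0.4835 in dTAG libraries. With libraries centred the Morc2a ratio differed by −0.10 and was not called. The part of the library-wide shift in the old and new values was not tested. Ehmt2 in the YTHDC1 line was lower in both fractions, with old RNA at 172 and 145 CPM against 79.6 and 98.5 CPM (−1.11 and −0.56) and new RNA at 45.4 and 42.9 CPM against 26.6 and 31.0 CPM (−0.77 and −0.47). In the METTL3 line old RNA was higher in both replicates for 5 of the 8 genes and lower for 2, and new RNA higher for 1 and lower for 4. Among all 8289 genes with a tested ratio, old RNA was higher in both replicates for 45.9% and lower for 25.5%, and new RNA higher for 14.8% and lower for 47.2%. In the ZCCHC8 line old RNA was higher for 5 and lower for 1 of the 8 (36.9% and 29.4% of 7251 genes), and new RNA higher for 0 and lower for 4 (17.4% and 50.5%). In the YTHDC1 line the counts were 2 and 3 for old RNA (30.5% and 34.9% of 8820 genes) and 2 and 2 for new RNA (33.2% and 29.6%).

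**Figure D4:**
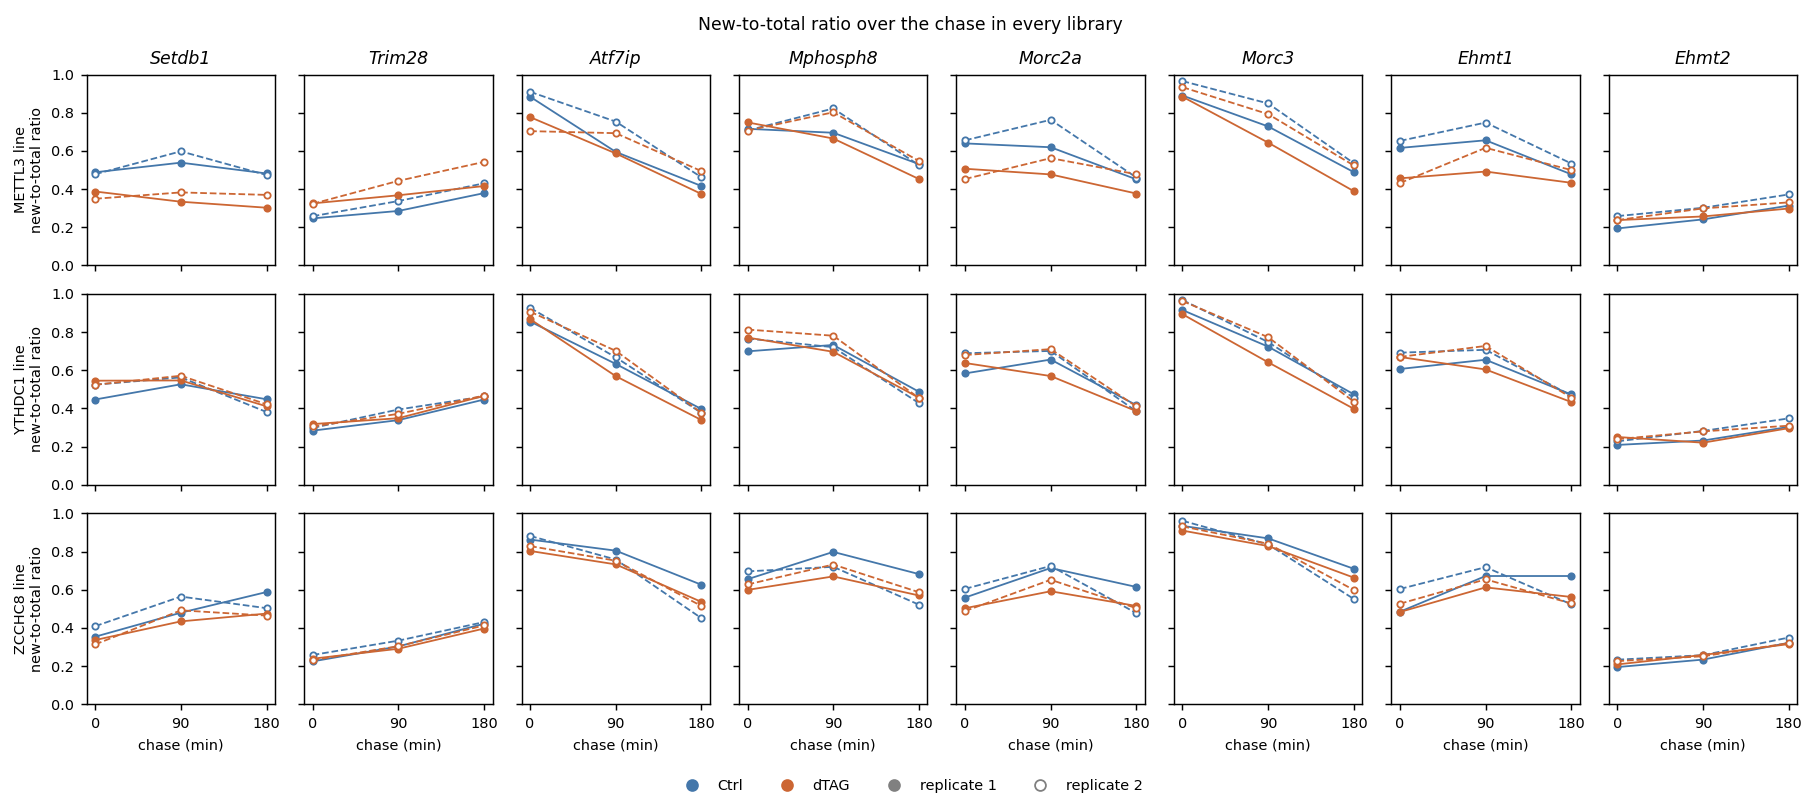
New-to-total ratio (0 to 1) of the 8 genes at 0, 90 and 180 min of chase, with 1 line per replicate and arm and 1 row of panels per degron line. Atf7ip and Morc3 start at 0.703 or above and end lower in all curves, while Trim28 and Ehmt2 start at 0.325 or below and end higher in all curves.

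The 8 genes differed widely in their share of new RNA after the 4 h pulse. Morc3 was almost all new, with mean ratios of 0.928, 0.942 and 0.948 in Ctrl libraries of the METTL3, YTHDC1 and ZCCHC8 lines, and Atf7ip was close behind at 0.897, 0.891 and 0.872. Mphosph8 (0.676 to 0.733), Morc2a (0.582 to 0.647) and Ehmt1 (0.545 to 0.650) stood above the medians of all genes, 0.601, 0.578 and 0.516. Setdb1 (0.381 to 0.486) stood below them, and Trim28 (0.241 to 0.291) and Ehmt2 (0.214 to 0.226) were lowest, with ratios under those of most genes. Thus among the methyltransferase partners Ehmt1 and Ehmt2, the former held a larger share of new RNA in every library.

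Label loss was followed as the ratio at 180 min in percent of that at 0 min. Of 96 curves, 12 per gene, all 12 ended lower for Atf7ip and for Morc3, and for none of the others among the 8. Mphosph8 ended higher only in replicate 1 of the ZCCHC8 Ctrl arm, at 104%. How many of all genes had all curves in 1 direction was not computed. In Ctrl libraries 48.9 ± 2.601%, 43.5 ± 4.05% and 61.8 ± 15.2% of the Atf7ip ratio was left in the METTL3, YTHDC1 and ZCCHC8 lines (SD, n = 2). For Morc3 it was 55.2 ± 0.399%, 49.4 ± 3.33% and 66.7 ± 13.1%. With dTAG-13 it was 59.2 ± 15.6%, 40.3 ± 1.74% and 64.4 ± 3.27% for Atf7ip and 50.0 ± 8.54%, 44.9 ± 0.511% and 68.6 ± 6.13% for Morc3, and each of these differed from its Ctrl value by less than the larger SD of the pair, except Morc3 in the YTHDC1 line. The medians of all genes were 83.8%, 79.8% and 109%, so in the ZCCHC8 line the ratio of most genes did not fall over the chase.

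For Trim28 and Ehmt2 all 12 curves ended higher than they began. Their ratios at 180 min were 160%, 156% and 177% of the 0 min value for Trim28 and 153%, 149% and 158% for Ehmt2 in Ctrl libraries of the 3 lines. The T-to-C rate, which is not scaled by the fitted model, also ended higher on average in Ctrl libraries, at 134%, 128% and 139% for Trim28 and 134%, 121% and 116% for Ehmt2. With dTAG-13 it ended at 99.4% for Ehmt2 in replicate 2 of the YTHDC1 line, so it did not end higher in every curve. The read level of both genes was lower at 180 than at 0 min in every line, arm and replicate, with log2 differences of −0.83 to −0.30 (Trim28) and −1.18 to −0.47 (Ehmt2), whereas that of Morc3 was higher by 0.36 to 0.69. A ratio that goes up in a chase gives no decay rate, so none is given for these genes, and the cause was not tested. For Setdb1 the ratio left was 98.9%, 86.5% and 145%, and by T-to-C rate 70.4%, 61.2% and 93.6%.

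The slope of the ratio over the chase did not differ between arms for any of the 8. In log2 units per h, METTL3 depletion gave slope differences of −0.07 (Ehmt2) to 0.13 (Ehmt1), YTHDC1 depletion −0.09 to −0.02 and ZCCHC8 depletion −0.04 to 0.05, and none of the 8 was called by limma in any of the alternatives. Over all genes 0.471% (39) were called in the METTL3 line, all higher, and 0 in the YTHDC1 and ZCCHC8 lines, where 195 and 147 genes had an unadjusted p under 0.05. For Setdb1 the difference was −0.04 (SE 0.08) in the METTL3 line, beside the lower ratio at every time.

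Other genes of H3K9 silencing, 41 in 7 lists, were read in the same tests. In the METTL3 line 8 of 41 were called, 4 higher and 4 lower, beside 19.9% of all genes (11.2% higher and 8.73% lower), with a median log2 difference of −0.02 against 0.01 for all genes. Daxx, a chaperone of histone H3.3, rose by 0.72 (49.1 to 79.8 CPM, edgeR adjusted p 0.0132), Fam208b, which encodes the TASOR paralogue TASOR2, by 0.47 (adjusted p 0.0448), and Zfp57, a zinc finger protein that brings TRIM28 to imprinted loci, by 0.33 (adjusted p 0.0336). Zfp809, a zinc finger protein that brings TRIM28 to retroviral DNA, fell by 0.78 (70.9 to 40.8 CPM, adjusted p 0.00117), and Cdyl, a chromodomain partner of G9a, by 0.57 (adjusted p 0.00479). Sumo2, a modifier that acts in SETDB1 recruitment, fell by 0.29 (adjusted p 0.0395). Under the replicate block 21 of the 41 were called, 13 higher and 8 lower, where 48.2% of all genes were called.

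In the YTHDC1 line 2 of the 41 were called, beside 5.1% of all genes. These were the germline genes Ddx4 (0.38, edgeR adjusted p 0.0145) and Tdrkh (0.65, adjusted p 0.0382), both higher. Under the replicate block 22 were called, 6 higher and 16 lower, where 26.9% of all genes were called. In the ZCCHC8 line 16 of 40 tested were called, 13 higher and 3 lower, beside 39.6% of all genes (20.1% higher and 19.5% lower), with a median of 0.11 against −0.00298 for all genes. Among 10 tested genes that this machinery silences in mES cells, 6 were called higher, beside 20.1% of all genes, with a median of 0.44. This list was chosen with earlier results of these data known, and it holds Zscan4c and Zscan4d as separate genes. Zfp352 rose by 2.12 (9.83 to 41.5 CPM, edgeR adjusted p 2.87e-12) and Zscan4c by 2.11 (9.31 to 39.7 CPM), both genes of the 2-cell embryo programme. Zscan4c and Zscan4d (1.83) are near-identical copies and reads were kept only where they aligned uniquely, so each value is uncertain. Mael (0.84) and Slc25a31 (0.58), both germline genes, also rose. Of the enzymes, Suv39h1 rose by 0.41 and Kdm3a, a demethylase of H3K9, by 0.48, while Suv39h2, a second enzyme of the Suv39h pair, fell by 0.31. Atf7ip2, a paralogue of Atf7ip, rose by 0.29 and Zfp57 by 0.37.

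In the METTL3 line Tdrkh (0.54, edgeR adjusted p 0.0342) rose and Zfp352 fell by 0.55 (adjusted p 0.0347), so of the 11 silenced genes 1 was called in each direction there, beside 11.2% of all genes higher and 8.73% lower. By list, 1 of 3 genes of other HUSH subunits and the TASOR paralogue was called in the METTL3 line. This was Fam208b, the paralogue, so no other HUSH subunit itself was called. Also called were 0 of 3 other H3K9 methyltransferases, 0 of 3 HP1 proteins and 1 of 3 partners of G9a and GLP. Last came 4 of 12 partners and chaperones of SETDB1 and TRIM28 and 0 of 6 demethylases, beside 19.9% of all genes. In the ZCCHC8 line the counts were 0, 2, 0, 0, 5 and 3, beside 39.6%.

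The genes most like each of the 8 were taken by Pearson's r of log2 CPM over 18 group means, centred within each line, among 7011 genes. These groups share libraries' depth and chase time, so r is a description. For Setdb1 the nearest were Pik3c2a (0.961) and Ddx42 (0.941), for Trim28 Mcm5 (0.988) and Pkm (0.984), and for Atf7ip Med13l (0.940) and Gmeb2 (0.938). For Mphosph8 they were Top1 (0.866) and Rnf31 (0.836), for Morc2a Ahctf1 (0.947) and Asf1b (0.922), for Morc3 Mpp5 (0.982) and Bag4 (0.979), for Ehmt1 Gon4l (0.864) and Atp2a2 (0.825), and for Ehmt2 Smtnl2 (0.968) and Ddx41 (0.960). None of the 8 was among the nearest of another. Setdb1 and Trim28 had an r of −0.11 with each other, and Trim28 and Ehmt2 of 0.74.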

How the data were processed

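Total RNA of 36 SLAM-seq libraries was sequenced from a stranded kit. Per the submitters' processing notes, reads were aligned with STAR 2.5.2b to mm10; by the study's methods, reads of rRNA were discarded, unique end-to-end alignments kept and GRAND-SLAM used. Each table holds the 6 libraries of 1 line and replicate. The annotation release, GRAND-SLAM version and use of strand in counting are not given in the sources used here. The deposited read counts are whole numbers per gene. The authors' new-to-total ratio is a fraction from 0 to 1, given as posterior mode, mean and quantiles. The deposited conversions and coverage of T positions, signal values kept to 4 significant digits, gave the T-to-C rate.

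Groups (3 lines, 2 arms, 3 chase times, 2 replicates) followed the labels. By the study's reporting summary, replicates were repeats of a single clone, and the wells of a replicate came from a shared batch of cells, so p-values measure the spread within that clone. The chase libraries of a replicate and arm share that batch. The summed alternative joins them into 1 library, but without pairing the arms by replicate. A fit both summed and paired was not run. Counts of dTAG and Ctrl libraries were compared within each line over 6 against 6 libraries with chase time as a covariate (edgeR 4.0.16, R 4.3.3, filterByExpr, TMM, quasi-likelihood F-test, Benjamini-Hochberg over all genes, threshold 0.05), and responses between lines by an interaction term. Ratios were compared as log2 of the posterior mode, keeping genes that reached 100 reads and 0.02 throughout a line, with limma 3.58.1 (trend, robust), as the mean difference and as the difference of slopes. Of 22979 genes 4560 were absent from some tables and were set to 0 counts there. 180 deposited columns were not used. DESeq2 1.42.0, other size factors, no filter, summed chase libraries, the T-to-C rate, centring on library medians, the replicate number as a block and leaving out each replicate were alternatives.

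Same-numbered libraries deviated together between arms, with correlations of 0.622 to 0.781 (METTL3), 0.688 to 0.748 (YTHDC1) and 0.180 to 0.192 (ZCCHC8), so the numbers, which the labels give and which mark a shared batch of cells, pair the libraries. The rule for the 8 genes uses symbols only, but the genes and the lists were chosen with earlier results of these data known. All 8 genes were named in every comparison; of the other lists, at most the 10 called genes with the largest change per line were named, and for each of the 8 the 2 genes of highest correlation. In simulated counts with changed genes at a log2 difference of 1, the count test recovered 51.5% (METTL3), 71% (YTHDC1) and 93.5% (ZCCHC8) of 200 genes. The simulated libraries were drawn independently, without the shared batches of cells, so these figures do not give the recovery in the real libraries. Depth was 5274684 to 18652000 reads per library; intervals from counts cover counting error only.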

Additional observations from a re-analysis of the deposited data

Results flagged for a closer look

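Responses to dTAG-13 that differed between lines were tested as edgeR interactions over the 36 libraries. The Setdb1 response in the METTL3 line exceeded that in the YTHDC1 line by 0.56 on the log2 scale, and that of Morc2a by 0.30. The Setdb1 response in the ZCCHC8 line minus that in the METTL3 line was −0.40, and for Trim28 the same difference was 0.45. Each line is a single clone with its own tables, so line and clone cannot be told apart. Groups of 2 replicates are too small for a check of single libraries that stand apart.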

How the results depend on the processing

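Of 624 alternative values for the 8 genes, 506 kept direction and side of the threshold, 25 lost a call, 33 gained one and 60 changed sign, 0 of the last for a value called in the reported fit. Pairing by replicate number raised the counts of genes called. In read counts the replicate block gave 7059 against 2920 genes (METTL3) and 3888 against 737 (YTHDC1), and in the interactions 6468 against 3097 (METTL3 minus YTHDC1), 4917 against 2193 (ZCCHC8 minus YTHDC1) and 6615 against 3598 (ZCCHC8 minus METTL3). For the ratio the block gave 76 against 27 (YTHDC1), and for the slope 99 against 39 (METTL3). Apart from the member values printed with the results, the block changed no call among the 8. Summed chase libraries called 0 genes by edgeR in the METTL3 and YTHDC1 lines, with 1433 and 696 at an unadjusted p under 0.05, and DESeq2 called 1158 in the YTHDC1 line. The T-to-C rate called 692, 13 and 308 genes in the METTL3, YTHDC1 and ZCCHC8 lines against 2246, 27 and 83 for the ratio, and a minimum of 50 reads called 13 and 29 in the last 2. Centring called 75 genes for the YTHDC1 ratio and 1172 (METTL3) and 7 (YTHDC1) for the slope. Leaving out 1 replicate gave 5627 to 7398, 1356 to 3578 and 3270 to 4986 genes in the METTL3, YTHDC1 and ZCCHC8 counts, 3809 to 6482, 1697 to 4355 and 4155 to 6316 in the interactions in the order above, 650 to 763, 0 to 170 and 17 to 23 for the ratio, and 30 to 472, 22 to 33 and 33 to 72 for the slope. Of the 60 sign changes, 8 were in counts, 5 in interactions, 23 in the ratio and 24 in the slope. Those in counts, interactions and the METTL3 ratio follow, mostly as ranges when 1 replicate was left out. The other 17 in the ratio (−0.13 to 0.0448) and 23 in the slope (−0.0782 to 0.0701) were in values not printed singly. METTL3 counts gave −0.19 to 0.36 (Ehmt2), −0.25 to 0.0316 (Morc3) and −0.27 to 0.10 (Mphosph8). YTHDC1 counts gave −0.00499 to 0.0678 (Setdb1), −0.0381 to 0.22 (Atf7ip) and −0.0365 to 0.0619 (Mphosph8, and −0.0131 with summed libraries). For ZCCHC8 counts Mphosph8 gave −0.0698 to 0.0565. ZCCHC8 minus YTHDC1 gave −0.0448 to 0.25 (Atf7ip) and −0.15 to 0.0804 (Mphosph8), and ZCCHC8 minus METTL3 gave −0.51 to 0.11 (Ehmt2), −0.17 to 0.13 (Morc3) and −0.14 to 0.30 (Mphosph8). For the METTL3 ratio Ehmt2 gave −0.10 to 0.10 and Mphosph8 −0.0759 to 0.00711 (0.0166 by T-to-C rate), centring gave 0.0904 (Atf7ip), 0.10 (Morc3) and 0.18 (Mphosph8), and the METTL3 slope of Setdb1 was −0.11 to 0.0314. The causes were not tested. Leaving out a replicate leaves 1 batch of cells, so the spread in those fits is that between its chase libraries. In METTL3 counts 7 of the 8 were called without replicate 1, where 52.9% of all genes were called. Without replicate 2 it was 3 of the 8, beside 40.5% of all genes, and over both replicates 1, beside 19.9%.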
